A study of Mus musculus with 23 samples.

Results

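The genes described here encode the nuclear subunits of the oxidative phosphorylation system in mouse blood stem cells and megakaryocyte progenitors. They were chosen by name only, as every row of the count table whose gene symbol marks a subunit of complexes I to V or cytochrome c (Ndufa, Ndufb, Ndufc, Ndufs or Ndufv with a number, Sdha to Sdhd, Uqcr, Cyc1, Cycs, Cox4 to Cox8 and Atp5). The rule found 85 of the 24454 genes in the table and none of them was annotated as a pseudogene. They fall into complex I (35 genes), complex II (4), complex III (9), cytochrome c (1), complex IV (20) and complex V (16), with Ndufa4 and Ndufa4l2 placed in complex IV, where the NDUFA4 protein is known to sit.

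RNA was sequenced from sorted marrow cells of C57BL/6 mice of 2 genotypes, wild type (WT) and SclCre;V617F, in which a Cre driven by Scl regulatory sequence switches on the activating V617F form of the kinase JAK2. WT and V617F mice alike had received tamoxifen for 5 days and were sampled 12 weeks later, and no group with the Cre alone is among those used here. The long-term haematopoietic stem cells (LT-HSC) were CD150-positive, CD48-negative cells that carried Kit and Sca-1 and lacked lineage markers; the same gate was also split by CD41, the integrin chain that platelets and megakaryocytes carry. Megakaryocyte progenitors (MkP) were positive for Kit, CD150 and CD41 and negative for Sca-1 and lineage markers. Each of the 8 groups had 3 libraries, except WT CD41-positive HSC, which had 2. CD41 fractions were amplified with SMART-Seq v4 (11 libraries) and LT-HSC and MkP with SMART-Seq v2 (12 libraries), so the protocols were normalised apart and no level is compared between them. Male mice gave all 3 V617F LT-HSC libraries and library 2 of both V617F CD41 fractions, and female mice gave the rest, so sex cannot be told apart from genotype in LT-HSC or from population between V617F LT-HSC and MkP. The labels do not say that the libraries of a group came from separate mice, so the p-values measure the spread between libraries, which may be technical.

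Oxidative phosphorylation passes electrons from NADH (through complex I) or succinate (through complex II) by way of ubiquinone to complex III, and on by cytochrome c to complex IV, which reduces oxygen. Complexes I, III and IV pump protons, and complex V, the ATP synthase, uses the proton gradient to make ATP. Quiescent blood stem cells are known for a low rate of respiration and reliance on glycolysis, and respiration is known to rise as they enter cycle and differentiate. A few core subunits of complexes I, III, IV and V are made from mitochondrial DNA; none of those genes was found in the count table and they are not analysed here.

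Libraries held 17.6 M to 49.2 M counts (median 22.2 M), and the subunit genes together took 0.868 to 3.22% of a library's counts. A filter on low counts left 80 of the 85 genes for testing among 14467 genes in the CD41 fractions and 79 among 14281 in LT-HSC and MkP. Cox6a2, Cox7b2, Cox8b, Cox8c and Ndufa4l2 did not pass in either, and Atp5g2 did not pass in LT-HSC and MkP. Itga2b, the gene of the sorted CD41, was measured at 148, 232 and 181 CPM (counts scaled to the library's total) in WT CD41-negative HSC and at 794 and 916 in WT CD41-positive HSC. All 14 stem cell markers of a list had counts in each HSC group. Some libraries stood apart. The mitochondrial leucyl-tRNA synthetase gene Lars2 was at 15742 and 16145 CPM in WT CD41-negative libraries 1 and 3, against 968 to 1556 in the other 9 libraries of that protocol, and in WT LT-HSC library 30 the subunit genes took 3.22% of counts against 1.49 and 1.46% in the other 2. Beside each subunit gene described in the contrast of the CD41 fractions in WT, the value without CD41-negative libraries 1 and 3 is given where the call changed or the value moved by over 1.5 times.

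**Figure D1:**
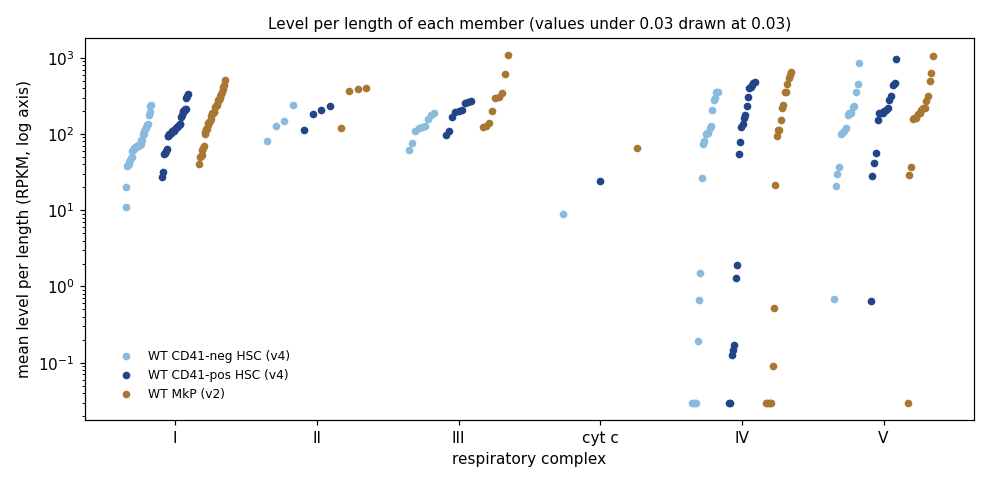
Level per length of each subunit gene, as mean CPM per kilobase of the deposited gene length (RPKM, log axis) in WT CD41-negative HSC, WT CD41-positive HSC and WT MkP, with 1 point per gene, ordered by level within each complex and values under 0.03 drawn at 0.03. MkP come from another protocol, so only the order within a group can be read across. The tissue-restricted isoforms of complex IV other than Cox6b2 lie far under the common subunits of that complex, and Cox6b2 lies less far under them.

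Levels between genes were compared per length, as CPM per kilobase (RPKM) averaged over the 4 groups of a protocol. The beta subunit of the catalytic head of ATP synthase, Atp5b, was highest in the CD41 fractions at 913 RPKM, and its partner alpha subunit Atp5a1 was at 451. Cox4i1, the common form of the regulatory subunit 4 of complex IV, followed in that complex at 439, with Ndufa4 at 417. Within the other complexes the highest were Ndufb9 (299 RPKM), an accessory subunit of complex I, Uqcr10 (249.7 RPKM), a small subunit of complex III, and Sdha (242 RPKM), the flavoprotein of complex II. In LT-HSC and MkP the highest of each complex were Uqcrc1 of complex III at 1032 RPKM, Cox4i1 at 815, Atp5b at 814, Ndufb8 of complex I at 697 and Sdhb, the iron-sulphur subunit of complex II, at 489.99. Cycs, the single gene of somatic cytochrome c in the set, was at 20.8 RPKM in the CD41 fractions and 46.8 in the others, below every subunit of complexes II and III. The lowest subunits of complex I were Ndufa11 at 24.3 RPKM in the CD41 fractions and Ndufs1, its largest iron-sulphur subunit, at 52.0 in LT-HSC and MkP.

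Several subunits have alternative isoforms, and their shares of the level per length differed between families. Cox6a1, Cox7b, Cox8a and Ndufa4 each took 99.8% to 100% of their family's summed RPKM as group means, while Cox6a2 and Cox8b, known from heart and skeletal muscle, were at or near 0. Cox8c had no count in any library. Cox6b2, known as a testis isoform, took 8.32 to 11.1% of the Cox6b family as group means in the CD41 fractions and 2.95 to 4.77% in LT-HSC and MkP. Within the Cox7a family, Cox7a2l took 42.1% (39.6 to 44.6) in WT CD41-negative HSC and 32.2% (30.7 and 33.7) in WT CD41-positive HSC. In V617F cells its share was 41.0% (38.4 to 44.7) and 27.6% (26.6 to 29.5), so in both genotypes no CD41-positive library reached the lowest CD41-negative one. Of the 3 genes that encode the same mature c subunit of the ATP synthase ring, Atp5g3 took 88.6 to 91.9% in the CD41 fractions. In LT-HSC and MkP it took 49.98 to 64.2%. Atp5g1 took nearly all of the remainder, and Atp5g2 no more than 0.189% as a group mean. Protocol differs between these sets of groups, so the shares of Cox6b2 and the Atp5g genes cannot be compared across them. Genes of this system have near-identical processed copies in the genome, and how the authors counted shared reads is not given in the sources used here, so the low values of Atp5g2 are uncertain.

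**Figure D2:**
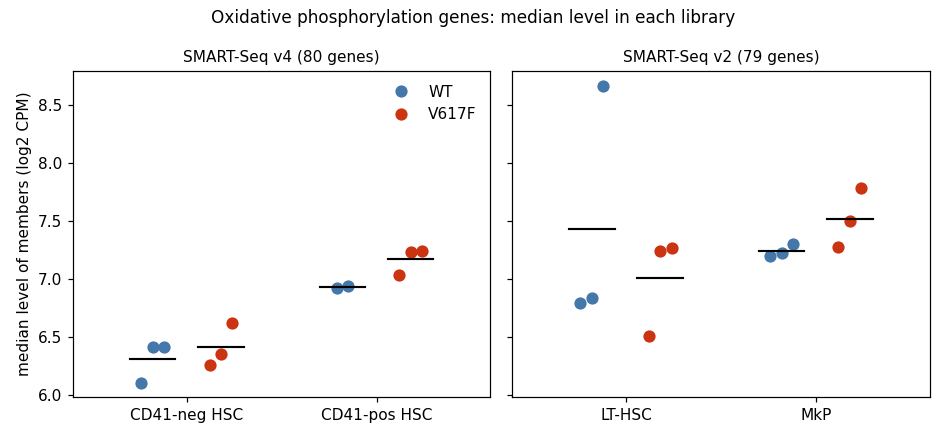
Median log2 CPM over the tested subunit genes in each library, 1 point per library with the group mean as a line, drawn apart for the 2 amplification protocols. All CD41-positive libraries lie above all CD41-negative ones, and WT LT-HSC library 30 lies above every other library of its protocol.

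The median subunit gene was at a log2 CPM of 6.32 ± 0.18 (SD, n = 3) in WT CD41-negative HSC and 6.93 ± 0.02 (n = 2) in WT CD41-positive HSC. In V617F cells it was 6.42 ± 0.19 and 7.17 ± 0.11 (n = 3 each). Single libraries ranged from 6.11 to 6.62 without CD41 and from 6.92 to 7.25 with CD41, so the fractions did not overlap. In LT-HSC the medians were 7.44 ± 1.07 in WT and 7.01 ± 0.43 in V617F, and in MkP 7.24 ± 0.05 and 7.52 ± 0.25 (n = 3 each). WT LT-HSC library 30 was at 8.67, against 6.80 and 6.84 in its 2 companions.

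CD41-positive HSC had more RNA of most subunit genes than CD41-negative HSC of the same genotype, and no subunit gene passed the test in the other direction. In WT mice 56 of 80 rose, at an adjusted p under 0.05 in edgeR's quasi-likelihood test, with a median change of 0.59 on the log2 scale (1.51-fold) against −0.04 for all genes tested. Of all genes, 15.7% rose and 18.2% fell. In V617F mice 61 of 80 rose, with a median of 0.69 (1.61-fold) against −0.02 for all genes, of which 16.4% rose and 17.9% fell. Groups did not overlap, with CD41-positive cells higher, for 66 of 80 subunit genes (82.5%) in WT and 75 of 80 (93.8%) in V617F mice, against 27.4% and 28.4% of all genes. In bulk samples a change in the share of a cell type and a change in RNA per cell cannot be told apart.

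By complex, WT cells had higher levels with CD41 for 28 of 35 genes of complex I (median log2 change 0.61), 3 of 4 of complex II (0.47), 8 of 9 of complex III (0.55), cytochrome c (1.48), 10 of 15 tested of complex IV (0.67) and 6 of 16 of complex V (0.37). In V617F cells the counts were 27 of 35 (0.68), 3 of 4 (0.53), 6 of 9 (0.63), cytochrome c (0.96), 11 of 15 (0.90) and 13 of 16 (0.77). Leaving out WT CD41-negative libraries 1 and 3 leaves 1 library in that group, so only medians are given for it. The WT medians were then 0.46 for complex I, 0.29 for II, 0.47 for III, 0.71 for cytochrome c, 0.63 for IV and 0.47 for V. The order of the complexes by median in WT thus changed when those libraries were left out. With all libraries the catalytic head of complex V gave 1 of 5 genes in WT and 4 of 5 in V617F cells, and the membrane ring and stalks 5 of 11 and 9 of 11. The difference of the CD41 changes between genotypes was tested gene by gene, and no subunit gene passed that test.

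**Figure D3:**
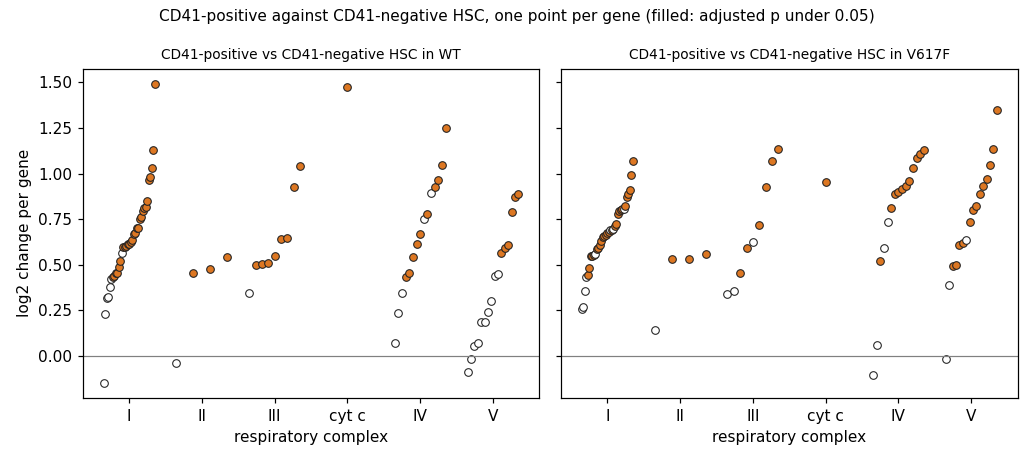
Log2 change from CD41-negative to CD41-positive HSC for each tested subunit gene, ordered by size within each complex, with WT and V617F mice in separate panels and filled points for genes past an adjusted p of 0.05. Nearly all points lie above 0 in both genotypes, with medians of 0.59 and 0.69.

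Among complex III subunits, Uqcr10 was measured at 82.5, 65.1 and 75.6 CPM in V617F CD41-negative libraries and at 176, 145 and 169 in V617F CD41-positive ones. The groups did not overlap, a log2 change of 1.13 ± 0.12 (SE; adjusted p = 3.8e-05), the smallest p of any subunit gene in V617F mice. In WT the values were 85.8, 87.8 and 73.4 and then 118 and 123 CPM, a change of 0.55 ± 0.13 (adjusted p = 0.0096). Uqcr11, another small subunit of the complex, went from 56.9, 47.5 and 58.3 to 83.0 and 86.4 CPM in WT and from 56.7, 51.8 and 55.3 to 109, 94.2 and 108 in V617F cells. Neither genotype showed overlap for Uqcr11, with log2 changes of 0.64 and 0.92 (adjusted p = 0.0028 and 7.7e-05). The catalytic subunit cytochrome c1, Cyc1, rose by 0.50 and 0.72 on the log2 scale (adjusted p = 0.013 and 6.1e-04). The Rieske iron-sulphur subunit Uqcrfs1 rose by 0.65 in WT (adjusted p = 0.026), and its change in V617F cells was 0.36 (adjusted p = 0.14). The WT calls of Cyc1 and Uqcrfs1 were lost without WT CD41-negative libraries 1 and 3, with changes of 0.47 and 0.19 (adjusted p = 0.073 and 0.39).

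Complex I followed the same direction in both its core and its accessory subunits. Ndufb10, an accessory subunit of the membrane arm, was at 83.1, 77.3 and 91.2 CPM in WT CD41-negative and 123 and 131 in WT CD41-positive libraries. Its V617F values were 89.7, 77.8 and 82.5 and then 152, 133 and 151 CPM. Both pairs of groups were separate, with log2 changes of 0.60 and 0.80 (adjusted p = 0.0031 and 1.5e-04). Ndufa2 of the matrix arm rose by 0.70 and 0.87, and Ndufb7 of the intermembrane side by 0.67 and 0.99. In the NADH-oxidising head, Ndufv1, which holds the flavin, rose by 0.79 and 0.68 (adjusted p = 0.014 and 0.016). The change of Ndufs1 passed in WT (0.63, adjusted p = 0.017) and was 0.26 in V617F cells (adjusted p = 0.22). Core subunits passed for 5 of 7 genes in WT and 4 of 7 in V617F, accessory subunits for 23 of 28 in each. Ndufs5, another accessory subunit, was at 3.46, 2.52 and 10.98 CPM in WT CD41-negative and 16.2 and 15.8 in WT CD41-positive libraries. Its WT change of 1.49 (adjusted p = 0.02) was the largest of the subunit genes with all libraries. Without WT CD41-negative libraries 1 and 3, its lowest, it was 0.54 (adjusted p = 0.14), a lost call. Without them the WT change was 0.35 for Ndufv1 (adjusted p = 0.048), and the calls of Ndufs1 (0.25, adjusted p = 0.2) and Ndufb7 (0.64, adjusted p = 0.066) were lost.

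Cycs, the mobile electron carrier and, once released from mitochondria, a trigger of apoptosis, was at 22.6, 12.5 and 45.8 CPM in WT CD41-negative and 70.8 and 79.3 in WT CD41-positive libraries. The V617F libraries were at 55.7, 46.9 and 52.8 and 108, 82.5 and 111 CPM. CD41-positive libraries were above all CD41-negative ones in each genotype, with log2 changes of 1.48 ± 0.36 and 0.96 ± 0.32 (SE; adjusted p = 0.009 and 0.036). WT CD41-negative library 3 had the lowest value of Cycs in the protocol. Without libraries 1 and 3 of that group the WT change was 0.71 (adjusted p = 0.033).

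In complex IV, Cox8a was at 111, 90.9 and 139.9 CPM in WT CD41-negative and 216 and 217 in WT CD41-positive HSC, and at 117, 97.9 and 132 and 265, 225 and 271 in the V617F fractions. That small structural subunit rose by 0.93 ± 0.17 and 1.13 ± 0.16 (SE; adjusted p = 0.0026 and 2.3e-04). Cox5a, a subunit on the matrix side, rose by 0.97 and 1.08, and Cox5b, which binds zinc, by 0.45 and 0.96 (adjusted p = 0.028 and 1.7e-04). Cox6b2 had the smallest p of all subunit genes in WT, with 14.9, 15.6 and 18.6 CPM without CD41 and 34.2 and 33.5 with it. Its change was 1.05 ± 0.15 in WT (adjusted p = 4.2e-04) and 0.93 ± 0.13 in V617F cells (adjusted p = 2.4e-04). Cox7a2 rose by 0.67 and 0.91 (adjusted p = 0.011 and 7.2e-04), while its relative Cox7a2l had log2 differences of 0.07 and 0.06 that did not pass. Cox4i1, the highest gene of the complex per length, rose less, by 0.43 and 0.52 (adjusted p = 0.04 and 0.0099). The WT calls of Cox7a2 and Cox4i1 were lost without WT CD41-negative libraries 1 and 3, with changes of 0.64 and 0.38 (adjusted p = 0.068 and 0.1).

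Of complex V, Atp5o, the OSCP subunit that ties the catalytic head to the peripheral stalk, was at 88.8, 69.4 and 96.5 CPM in WT CD41-negative and 142 and 151 in WT CD41-positive HSC. In V617F mice it was at 113, 87.3 and 99.6 and then 191, 169 and 196 CPM. Each genotype's groups were separate, and the changes were 0.79 and 0.89 (adjusted p = 0.0028 and 4.1e-04). Atp5b was at 2279, 1165 and 1351 CPM in WT CD41-negative and 1734 and 1907 in WT CD41-positive HSC, so library 1 of the former was above both of the latter. Its change was 0.19 (adjusted p = 0.58) in WT and 0.62 in V617F cells (adjusted p = 0.048), where the values went from 1336, 1338 and 1396 to 2147, 1899 and 2205. Atp5k and Atp5e, small subunits of the membrane part and the head, rose by 1.35 and 1.14 in V617F cells (adjusted p = 0.0035 and 7.9e-04). In WT their changes were −0.01 and 0.44 (adjusted p = 0.98 and 0.12). With WT CD41-negative libraries 1 and 3 left out the WT change of Atp5k was 0.94 (adjusted p = 0.0502), so its sign turned, and that of Atp5e was 0.77 (adjusted p = 0.08). Atp5b then passed in WT, at 0.43 (adjusted p = 0.032).

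In complex II, which is also an enzyme of the tricarboxylic acid cycle, 3 of the 4 subunits rose in each genotype. Sdhb was at 130.5, 121 and 158 CPM in WT CD41-negative and 191 and 206 in WT CD41-positive HSC, and at 182, 149 and 150.4 and 247, 198 and 251 in the V617F fractions. The groups were separate, with changes of 0.54 and 0.53 (adjusted p = 0.017 and 0.0099). The membrane anchor Sdhd rose by 0.48 and 0.53. Sdha, the highest gene of the complex per length, was at 804, 648 and 626 and then 658 and 693 CPM in WT, and at 636, 702 and 661 and 719, 745 and 742 in V617F cells. Its changes were −0.04 ± 0.15 and 0.14 ± 0.13 (SE), the smallest of the complex in each genotype. No gene of the complex passed in WT without CD41-negative libraries 1 and 3, with changes of 0.33 for Sdhb, 0.34 for Sdhd, 0.25 for Sdhc and 0.10 for Sdha (adjusted p = 0.22, 0.076, 0.25 and 0.53).

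Genes past the test in both genotypes numbered 46, which is 82.1% of those called in WT and 75.4% of those called in V617F mice. In neither genotype did 9 tested genes pass, Ndufs3, Sdha, Cox4i2, Cox7a1, Cox7a2l, Ndufa4, Atp5a1, Atp5g2 and Atp5s. Ndufa4 had log2 differences of 0.75 and 0.73 (adjusted p = 0.075 and 0.057). The difference of Atp5a1 was 0.05 and 0.39. The WT difference without CD41-negative libraries 1 and 3 was 0.44 for Ndufa4 and 0.31 for Atp5a1 (adjusted p = 0.1 and 0.059). The WT count moved with the libraries used. It was 17 without WT CD41-positive library 3, 6 without WT CD41-positive library 4 and 22 when the fit held the compared groups alone. Without WT CD41-negative libraries 1 and 3, which stood apart for Lars2, 26 genes rose and none fell, with a median of 0.48. Leaving out either CD41-positive library, or both of these CD41-negative ones, leaves 1 library in that group, assumed to vary like the libraries of the other groups, so the number of libraries and the library left out cannot be told apart. In V617F mice the count was 46 to 60 with any 1 library left out and 74 with the compared groups alone. Counts from refits, here and below, stand without the share of all genes called in the same fit. They show how the count moved and are not read as a result about the subunit genes.

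Other measures moved with the CD41 fractions. Of 15 tested megakaryocyte markers 12 rose in each genotype, and the marker list summed to 2444 to 2924 CPM in WT CD41-negative and 4236 to 4410 in WT CD41-positive libraries (1880 to 1984 and 2879 to 3821 in V617F), with Gp6 at 0 throughout. Of 15 tested granulocyte markers 9 fell in WT and 3 in V617F mice, and this list summed to 288 to 807 and 131 to 145 CPM in WT, and 333 to 377 and 99 to 169 in V617F. Of 14 stem cell markers 7 fell and 2 rose in WT, and 6 fell and 2 rose in V617F mice. Subunit genes are short, with a median deposited length of 724 bases against 2816 for all genes tested. Across subunit genes, the change with CD41 had a Spearman rank correlation with length of −0.15 in WT (n = 80 genes) and −0.64 in V617F cells (n = 80 genes), against −0.23 and −0.26 over all genes. These are descriptions across genes that share their libraries. The part of cell make-up and transcript length in the result was not tested.

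The start sites of these genes are shown because the genes moved together between the CD41 fractions. RefSeq windows of 300 bases (250 before the start and 50 after it, build GRCm38.p6) were found for 69 of the 85 genes, 74 windows in all. Motifs of factors known from work on nuclear genes of the respiratory chain were searched on both strands, with the letters CGCANGCG for NRF1, CCGGAAG for GABPA, AAGATGG for YY1 and TGACGTCA for CREB. None of these motifs contains another. Printed here are windows of 4 genes past the test in both genotypes and of Sdha, which passed in neither. Uqcr10 lies at chr11:4704295-4704594, Uqcr11 at chr10:80406772-80407071, Ndufb10 at chr17:24724374-24724673, Cox8a at chr19:7217567-7217866 and Sdha at chr13:74350191-74350490, all on the minus strand. Each is written 5′ to 3′ along its gene, and capitals mark the letters of a searched motif on either strand.
Uqcr10: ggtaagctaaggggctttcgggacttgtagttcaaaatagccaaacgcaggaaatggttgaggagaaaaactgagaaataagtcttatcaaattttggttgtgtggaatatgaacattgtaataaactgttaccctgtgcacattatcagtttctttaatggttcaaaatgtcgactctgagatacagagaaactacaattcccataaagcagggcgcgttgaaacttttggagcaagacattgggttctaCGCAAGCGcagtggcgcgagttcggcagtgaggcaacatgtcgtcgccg
Uqcr11: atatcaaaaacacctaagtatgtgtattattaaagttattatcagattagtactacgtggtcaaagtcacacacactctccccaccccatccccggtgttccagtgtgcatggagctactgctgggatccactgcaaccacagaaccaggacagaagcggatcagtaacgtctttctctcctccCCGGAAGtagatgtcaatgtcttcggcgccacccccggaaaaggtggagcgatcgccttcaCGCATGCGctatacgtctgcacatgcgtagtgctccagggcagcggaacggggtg
Ndufb10: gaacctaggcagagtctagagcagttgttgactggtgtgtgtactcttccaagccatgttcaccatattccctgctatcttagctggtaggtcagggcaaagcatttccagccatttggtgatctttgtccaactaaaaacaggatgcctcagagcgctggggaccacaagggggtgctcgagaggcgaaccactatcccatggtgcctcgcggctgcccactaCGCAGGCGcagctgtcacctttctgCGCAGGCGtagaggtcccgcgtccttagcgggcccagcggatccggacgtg
Cox8a: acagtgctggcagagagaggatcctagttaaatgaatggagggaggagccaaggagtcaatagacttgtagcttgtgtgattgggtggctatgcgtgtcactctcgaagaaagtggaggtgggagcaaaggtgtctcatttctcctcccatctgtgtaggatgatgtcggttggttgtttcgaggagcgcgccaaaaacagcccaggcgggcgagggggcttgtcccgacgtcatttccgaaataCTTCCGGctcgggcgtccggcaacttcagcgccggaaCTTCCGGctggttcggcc
Sdha: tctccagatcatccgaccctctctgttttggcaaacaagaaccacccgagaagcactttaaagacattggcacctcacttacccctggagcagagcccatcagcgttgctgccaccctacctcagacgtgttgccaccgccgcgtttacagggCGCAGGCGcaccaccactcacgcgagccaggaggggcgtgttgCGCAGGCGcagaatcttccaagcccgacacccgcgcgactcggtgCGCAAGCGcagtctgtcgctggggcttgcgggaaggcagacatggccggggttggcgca

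The NRF1 letters stood in 29 of the 74 windows (39.2%), against 15.7% of the 14338 windows of genes tested in the CD41 fractions and 8.21% of all 32851 windows. Shares for GABPA were 21.6% (16 windows), 16.3% and 8.86%, for YY1 14.9% (11 windows), 6.8% and 6.34%, and for CREB 6.76% (5 windows), 2.87% and 1.79%. In the 43 windows of genes that rose in both genotypes, the NRF1 letters stood in 41.9% and the GABPA letters in 23.3%. At least 1 of the NRF1, GABPA and YY1 motifs stood in 47 of 74 windows (63.5%), against 33.3% of those of tested genes. In the windows printed, the NRF1 letters begin at base 252 of Uqcr10, at base 246 of Uqcr11, and at bases 225 and 250 of Ndufb10. The GABPA letters begin at base 185 of Uqcr11 and, on the opposite strand, at bases 246 and 283 of Cox8a. Sdha, which did not pass in either genotype, has the NRF1 letters at bases 154, 197 and 242. Counting starts at the first base of the window, and the transcript starts 250 bases into it. A match is a description of the letters.

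Genes that build or feed the respiratory chain were read from lists of their own. Of 47 assembly factors 17 rose in WT and 13 in V617F CD41-positive HSC and none fell (medians 0.33 and 0.28). Uqcc2, needed for complex III, rose by 1.08 and 1.13 (adjusted p = 0.0017 and 3.7e-04), and Cox17, the copper chaperone of complex IV, by 1.42 and 0.88. Of 19 carriers and partners 14 and 12 rose and none fell (medians 0.61 and 0.54). They included Etfb of the electron transfer flavoprotein (1.02 and 1.07), the ATP synthase inhibitor Atpif1 (1.45 and 1.21) and the outer membrane channel Vdac3 (0.61 and 0.61). Of 18 genes of the tricarboxylic acid cycle 8 and 7 rose and none fell (medians 0.38 and 0.28), among them Idh3a (0.83 and 0.61) and Fh1 (0.68 and 0.72). Without WT CD41-negative libraries 1 and 3 the WT counts were 2 assembly factors, 6 partners and 2 genes of the cycle (medians 0.22, 0.43 and 0.20), and none fell.

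Of 23 glycolysis genes 2 rose and 9 fell in WT, where 15.7 and 18.2% of all genes did, and 5 rose and 6 fell in V617F mice, where 16.4 and 17.9% did (medians −0.38 and −0.08). Without WT CD41-negative libraries 1 and 3, 2 rose and 4 fell in WT (median −0.12). Ldhb, a lactate dehydrogenase chain, changed by −0.89 and −0.81 (adjusted p = 0.001 and 4.5e-04), and Aldoc, an aldolase, by −0.92 and −1.21. Slc16a1, a monocarboxylate transporter, rose by 0.97 and 0.94. Of 19 regulators of mitochondrial biogenesis 5 rose and 1 fell in WT, and 1 rose and 1 fell in V617F cells (medians 0.18 and 0.11). The fall was that of Ppargc1a, a coactivator of such genes, at −2.03 and −3.15 (adjusted p = 0.014 and 5.5e-04). Tfam, which packages mitochondrial DNA, rose by 0.64 in WT, and Gabpa by 0.54. No regulator rose in WT and 1 fell without CD41-negative libraries 1 and 3.

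V617F and WT CD41-negative HSC differed in few subunit genes. Of 80 tested 2 were higher and 1 was lower in V617F cells, where 5.48% of all genes were higher and 7.94% lower, and the median change was 0.15 (−0.01 for all genes). At an unadjusted p under 0.05 the counts were 17 higher and 6 lower. Such unadjusted counts, here and in later comparisons, stand without the share of all genes at that cut. They are not read as a result about the subunit genes. Cox4i2, an isoform of complex IV subunit 4 known from lung and oxygen sensing, had the largest of these changes and is described over all groups at the end. Uqcrfs1 was at 71.2, 60.5 and 109.8 CPM in WT and 134, 116 and 116 in V617F cells. The V617F values were above all WT values, a change of 0.60 ± 0.18 (SE; adjusted p = 0.047). Atp5k was at 85.4, 77.7 and 33.6 CPM in WT and 43.0, 23.8 and 35.0 in V617F cells, with overlap, a change of −0.95 ± 0.29 (SE; adjusted p = 0.049). Best of complex I was Ndufa9 at 0.48 (adjusted p = 0.058), and Cycs was at 0.94 (adjusted p = 0.067).

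These calls moved with the libraries used. Without WT CD41-negative libraries 1 and 3 the log2 difference was 0.14 for Uqcrfs1, 0.10 for Ndufa9, 0.17 for Cycs, 0.0045 for Atp5k and 1.45 for Cox4i2. That fit leaves 1 library in the WT group, so the number of libraries and the libraries left out cannot be told apart. The calls of Uqcrfs1 and Atp5k were also lost without either of these WT libraries alone, and without any V617F CD41-negative library alone. Leaving out library 4 of the same group gave 34 calls, and leaving out V617F CD41-negative library 1 gave none. Leaving out any of WT libraries 1 and 3 and V617F libraries 2 and 3 gave 1 each. The share of all genes called in these refits is not given, so the counts are not read as a result about the subunit genes. Marker lists differed between the genotypes here. In V617F CD41-negative HSC 6 of 15 megakaryocyte, 10 of 19 erythroid, 3 of 14 stem cell and 6 of 12 monocyte markers were lower, and their part in the result was not tested. Of the pathway lists, 3 of 19 biogenesis regulators were higher (Gabpa 0.46, Gabpb1 0.46, Tfb1m 0.66), 2 of 18 tricarboxylic acid cycle genes and 2 of 19 partners (Ndufab1 0.69, Higd1a 0.89). No assembly factor of 47 passed, and in glycolysis Pdk3 was higher and Gapdh lower.

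**Figure D4:**
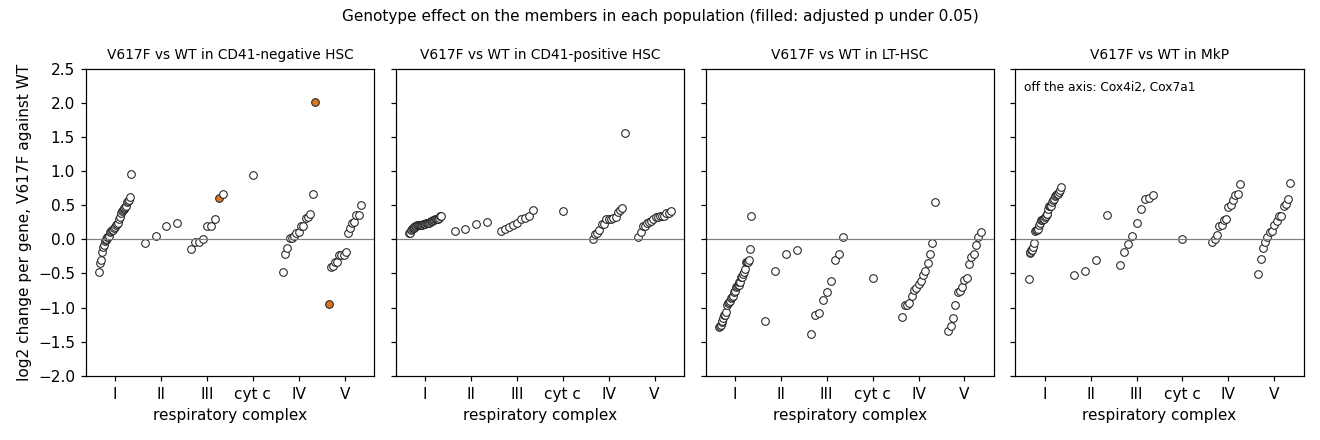
Log2 change from WT to V617F for each tested subunit gene in CD41-negative HSC, CD41-positive HSC, LT-HSC and MkP, ordered by size within each complex and filled where the adjusted p was under 0.05. Cox4i2 and Cox7a1 lie off the axis in MkP. The medians are 0.15, 0.25, −0.68 and 0.29, and 3 points in CD41-negative HSC and that of Cox4i2 in MkP are past the threshold.

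In CD41-positive HSC every tested subunit gene had a positive change in V617F against WT cells, 80 of 80, where 55% of all genes did. The size was small, a median of 0.25 (1.19-fold) against 0.03 for all genes. No subunit gene passed edgeR's test, 5 had an unadjusted p under 0.05, and DESeq2 called 1. Of all genes 0.221% were called higher and 0.94% lower. Groups did not overlap, with V617F higher, for 57 of 80 subunit genes (71.2%) against 23.9% of all genes, with 2 WT libraries. Uqcr10 was at 118 and 123 CPM in WT and 176, 145 and 169 in V617F libraries, a change of 0.44 ± 0.14 (SE; adjusted p = 0.2). The log2 difference was 0.34 for Atp5o, 0.28 for Ndufa2 and 0.25 for Sdhd (adjusted p = 0.46, 0.51 and 0.51). The median was 0.20 to 0.33 with any 1 library left out, and with library totals in place of the normalisation it was 0.18, with 78 of 80 positive. Across genes the change had a Spearman correlation with length of −0.44 (n = 80 genes), against −0.18 over all genes. In V617F cells 5 of 19 erythroid, 1 of 14 stem cell, 1 of 15 granulocyte and 1 of 12 monocyte markers were lower. The granulocyte list did not follow its called gene, as 12 of the 15 had a positive change (median 2.29). That list summed to 131 to 145 CPM in WT and 99 to 169 in V617F libraries. No megakaryocyte marker of 15 passed. The megakaryocyte list summed to 4236 to 4410 CPM in WT and 2879 to 3821 in V617F libraries. Pf4, a platelet chemokine gene, was at 589 and 629.8 CPM in WT and 641, 187 and 620.0 in V617F libraries 1, 2 and 3, and without V617F library 2 the median over subunit genes was 0.33. The part of length and of these markers in the result was not tested.

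Whether the V617F effect differed between the CD41 fractions was tested as the difference of the effects. No subunit gene passed, and 0% of all genes did. At an unadjusted p under 0.05 the difference was positive for 13 subunit genes and DESeq2 called none. The median difference was 0.10, and −0.04 with library totals, a scaling that moved the median of all genes by −0.13. The smallest p-values were those of Uqcr10 (0.58), Atp5k (1.36) and Cox6a1 (0.79), each with an adjusted p of 0.57. Without WT CD41-negative library 4, 13 genes passed. Leaving out WT CD41-negative libraries 1 and 3 instead gave 0.42 for Uqcr10, 0.41 for Atp5k and 0.35 for Cox6a1, and no subunit gene passed.

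In LT-HSC no subunit gene passed the test between genotypes, where 0.028% of all genes were higher and 0.035% lower in V617F mice. At an unadjusted p under 0.05, 9 subunit genes were lower, and DESeq2 called none. Changes were negative for 74 of 79 genes, with a median of −0.68 (−0.05 for all genes), and this rested on 1 library: without WT LT-HSC library 30 the median was 0.32, and with library totals it was −0.21, where the median of all genes moved by 0.29. Uqcrc1 was at 4929.6, 1943 and 1067 CPM in WT libraries 30, 31 and 32 and at 1161, 1170.0 and 696 in V617F libraries, with overlap and a change of −1.39 ± 0.48 (SE; adjusted p = 0.24). Sdhb was at 1672, 328 and 357 and 399, 385 and 248 CPM, and library 30 was the only WT library above every V617F library. Some subunit genes were instead lowest in library 30 of the WT libraries. Sdha was at 274, 1180.3 and 983 CPM in WT and Ndufs1 at 31.3, 102 and 162. Granulocyte markers, 18 in number, summed to 4017 to 7227 CPM in WT and 602 to 1313 in V617F LT-HSC, and their part was not tested.

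V617F and WT MkP differed in 1 subunit gene, Cox4i2, which was higher in V617F cells. Of all genes 1.62% were higher and 0.126% lower. The median over 79 subunit genes was 0.29 (0.08 for all genes), and 27 (34.2%) had V617F values above all WT values, against 21% of all genes. Negative changes were found for 18 genes, and none passed. Ndufv1 was at 369.8, 370.5 and 421 CPM in WT and 264, 264 and 252 in V617F MkP (−0.57, adjusted p = 0.4), and Atp5b at 2008, 1703 and 2252 and 1446, 1589 and 1167 (−0.51, adjusted p = 0.5). Neither pair of groups overlapped. The log2 difference was 0.60 for Uqcr10 and −0.53 for Sdha (adjusted p = 0.7 each). The Spearman correlation of change with length was −0.62 across the 79 genes and 0.02 across all genes. Granulocyte markers summed to 8621 to 12405 CPM in WT and 1184 to 2680 in V617F MkP, and 1 of 18 was lower. Of these sums, Mpo alone was at 9874, 5799 and 8636 CPM in WT and 805, 663 and 1717 in V617F MkP. Of 18 erythroid markers 2 were lower, and 2 of 14 stem cell and 1 of 11 monocyte markers were higher. That monocyte marker was the only 1 of the 11 with a positive change, and the median of its list was −1.71. The part of length and of these markers in the result was not tested.

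Between MkP and LT-HSC of WT mice 1 subunit gene passed, Cox4i2, which was lower in MkP. Of all genes 2.32% were higher and 6.58% lower in MkP. The median was −0.57 with library 30 of WT LT-HSC and 0.52 without it, when 6 genes were higher and 1 lower. It was −0.28 with library totals, which moved the median of all genes by 0.15. In V617F mice no gene passed, where 0.378% of all genes were higher and 0.714% lower. At an unadjusted p under 0.05 2 were higher and 1 lower, DESeq2 called 1, lower, and a fit of the compared groups alone called 9 higher and 1 lower. The V617F median was 0.48 (−0.06 for all genes), 71 of 79 changes were positive, and 39 (49.4%) had all MkP values above all LT-HSC values, against 17% of all genes. Library totals gave 0.37, with a shift of −0.10 in all genes. Cycs was at 61.5, 88.6 and 62.2 CPM in V617F LT-HSC and 185, 151 and 261 in V617F MkP, without overlap, a change of 1.49 ± 0.52 (SE; adjusted p = 0.27). In WT it was at 213, 38.4 and 63.3 and 200.3, 202 and 191, and the change was 0.91 (adjusted p = 0.28). In V617F cells the log2 difference was 1.11 for Cox5a (adjusted p = 0.37) and 0.88 for Uqcrq of complex III (adjusted p = 0.61). These comparisons share their LT-HSC and MkP libraries with those between genotypes. The Spearman correlation of change with length was −0.42 in V617F and 0.37 in WT mice across the 79 genes, against 0.02 and 0.20 over all genes. Of 14 stem cell markers 4 were lower in V617F MkP and 6 in WT MkP, and 0 were higher. Of 15 megakaryocyte markers 6 were higher in V617F MkP, and 8 were higher and 1 lower in WT MkP. The part of length and of these markers was not tested.

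The difference of the V617F effect between MkP and LT-HSC passed for no subunit gene and for 0.455% of all genes. The median difference was 1.05 with WT LT-HSC library 30 and −0.03 without it, and 0.66 with library totals, where the median of all genes moved by −0.23. At an unadjusted p under 0.05 it was positive for 4 subunit genes, and DESeq2 called 1. Cox4i2 came nearest (adjusted p = 0.057).

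**Figure D5:**
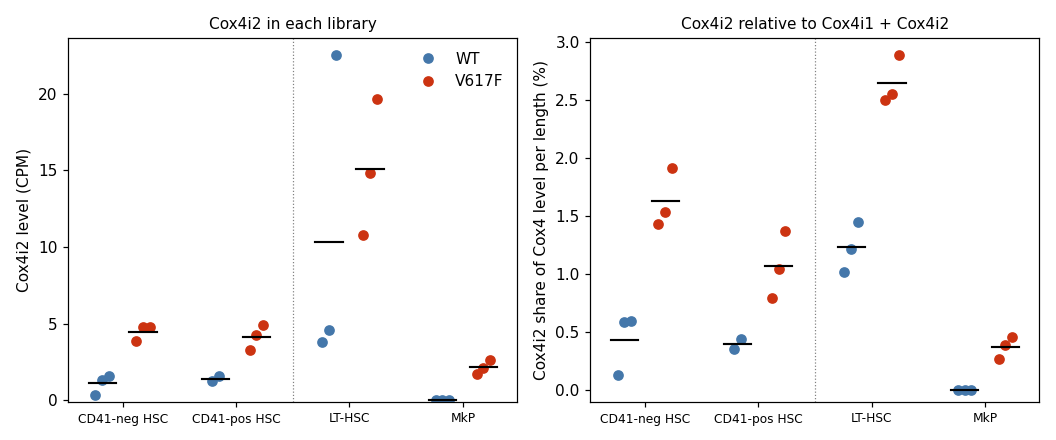
Cox4i2 in each library as CPM (left) and as its share of the summed level per length of Cox4i1 and Cox4i2 in percent (right), 1 point per library and a line at each group mean, with a dotted line between the protocols. The V617F libraries lie above the WT libraries of the same population in the share in all 4 populations.

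Cox4i2 was the only subunit gene called in more than 1 population between genotypes, and its levels were low. WT CD41-negative libraries were at 0.373, 1.31 and 1.61 CPM (7 to 32 counts) and V617F ones at 4.75, 4.77 and 3.85. The groups were separate, a change of 2.01 ± 0.39 (SE; adjusted p = 0.013), and the call was lost with the compared groups alone (adjusted p = 0.053) and without the male mouse (adjusted p = 0.054). CD41-positive libraries were at 1.56 and 1.25 in WT and 4.27, 4.89 and 3.28 in V617F mice, also separate, with a change of 1.56 ± 0.44 that did not pass (adjusted p = 0.14). All 3 WT MkP libraries had 0 counts and the V617F MkP libraries were at 2.62, 2.11 and 1.74 CPM (adjusted p = 0.016). Against a floor of 3 counts per WT library that is at least 26.1-fold higher. WT MkP libraries also had fewer genes with a count than V617F ones (11483 to 12463, against 14634 to 15167). The same held in LT-HSC (12876 to 13805 in WT, against 15298 to 15697). The part of this in the result was not tested. The call was lost without V617F MkP library 1 or 2 (adjusted p = 0.056 and 0.052). LT-HSC were at 22.5, 4.62 and 3.80 CPM in WT and 14.8, 19.6 and 10.8 in V617F mice, with WT library 30 above all, and WT MkP were at least 125-fold lower than WT LT-HSC against the same floor (adjusted p = 0.0019), or at least 50.8-fold without library 30. That call was lost with the compared groups alone (adjusted p = 0.11) and with the replicate number as a block (adjusted p = 0.38). In V617F mice the change from LT-HSC to MkP was −2.80 (adjusted p = 0.29).

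As a share of the summed level per length of both subunit 4 isoforms, Cox4i2 made up 0.435% (0.128 to 0.593) in WT and 1.63% (1.43 to 1.91) in V617F CD41-negative HSC. The shares were 0.396% (0.355 and 0.437) and 1.07% (0.793 to 1.37) in CD41-positive HSC, 1.23% (1.02 to 1.45) and 2.65% (2.498 to 2.89) in LT-HSC, and 0% and 0.371% (0.269 to 0.459) in MkP. In each population all V617F libraries were above all WT libraries, which is a description with no test. Cox4i1 made up 97.1% of the pair in the library where its share was lowest.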

How the data were processed

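Gene counts were deposited by the authors as 1 table of whole-number counts per gene for 23 libraries, with gene length, symbol and name beside them. Per the submitters' processing notes the tools included STAR 2.5.2a, R 3.4.2 and limma, with build mm10; the sources used here do not give the counting tool, its treatment of shared reads and strand, or the definition of the deposited gene length.

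The counts were analysed in R 4.3.3 with edgeR 4.0.16 (TMM normalisation, quasi-likelihood test, 1 mean per group), each amplification protocol fitted apart, after edgeR's filter on low counts (a minimum count of 10, and 15 in total). P-values were adjusted by the Benjamini-Hochberg method over all genes tested, with a threshold of 0.05. CPM are scaled by the TMM factors and RPKM are CPM per kilobase of the deposited length. Log2 CPM used a prior count of 2. The test was tried on simulated counts with 200 changed genes. Genes were named by rule: members past the threshold (the 12 smallest p-values where there were more), the best p of each complex in each comparison, 14 hallmark subunits, the isoform families, the highest and lowest of each complex, and up to 4 genes of each pathway list. Other genes whose values are given were chosen after they were seen. Members, lists and promoter motifs were chosen with earlier results of these data known.

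Alternatives were DESeq2 1.42.0, its size factors, omission of the filter, a stricter one (5 CPM in at least 3 libraries), a fit of the compared groups alone, each library left out in turn, the male V617F mouse left out of both CD41 fractions, and the replicate number as a block. After the data were seen, 2 more were added: leaving out WT CD41-negative libraries 1 and 3, and library totals. Same-numbered V617F CD41 libraries deviated together (r = 0.283, 0.396 and 0.279), so their numbers were taken to pair them.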

Additional observations from a re-analysis of the deposited data

How the results depend on the processing

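In V617F mice the rise with CD41 kept its direction and its count within 1.5 times under every alternative run. The count of members past the threshold moved elsewhere, and it is given without the share of all genes called in the same fit. Between genotypes in CD41-negative HSC it was 3, and 9 with DESeq2, 7 without a filter, 1 with library totals, 0 with the compared groups alone, 0 without the male mouse, 0 without WT libraries 1 and 3, and 0 to 34 with 1 library left out. In CD41-positive HSC it was 0, and 1 with DESeq2 and 2 with the compared groups alone. For CD41 in WT it was 56, and 22 with the compared groups alone, 26 without WT CD41-negative libraries 1 and 3, and 6 to 61 with 1 library left out. Where 1 library was then left in a group, it was assumed to vary like those of the other groups. For the difference of the V617F effect between fractions it was 0, and 0 to 13 with 1 library left out. In MkP it was 1, and 2 with the compared groups alone and 0 to 1 with 1 library left out. For MkP against LT-HSC in WT it was 1, and 4 with DESeq2, 0 with the compared groups alone and 1 to 7 with 1 library left out; in V617F it was 0, and 1 with DESeq2 and 10 with the compared groups alone. For the difference of the V617F effect between MkP and LT-HSC it was 0, and 1 with DESeq2 and 0 to 1 with 1 library left out. Medians that changed sign with 1 library left out were those of V617F against WT in LT-HSC (−1.10 to 0.32), MkP against LT-HSC in WT (−0.99 to 0.52) and the difference of effects (−0.028 to 1.53). Atp5k between genotypes in CD41-negative HSC was 0.0045 without WT libraries 1 and 3. The cause of these shifts was not tested.

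With the replicate number as a block, 67 members rose with CD41 in WT and 68 in V617F mice, and 0 passed between MkP and LT-HSC in WT (median −0.15, adjusted p of Cox4i2 0.38). Numbers were taken to pair the V617F CD41 libraries. Same-numbered WT libraries had r = 0.0356 and 0.0261 in the CD41 fractions and −0.0325, −0.0067 and 0.0237 between LT-HSC and MkP. Deviations of the 2 WT CD41-positive libraries mirror each other, so these values cannot decide whether WT numbers mark the same mouse. The block changed no other count by over 1.5 times. Depth limits the thinnest tested genes most, which in WT CD41-negative libraries held 3 to 7 counts (Cox7a1), 5 to 14 (Atp5g2) and 7 to 32 (Cox4i2).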
